A study of Homo sapiens with 12 samples.

Results

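Genes were compared for their response to a Wnt/β-catenin reporter in 2 human prostate cancer lines, DU145 and PC3, and the subject here is the difference between the 2 responses: the log2 fold change between reporter-high and reporter-low cells in DU145 minus the same change in PC3. Both lines are established, androgen-independent metastatic lines, DU145 from a brain and PC3 from a bone metastasis. Cells of each line carried a GFP reporter and were sorted on GFP brightness, the top 10% as signalling-active (here GFP high, labelled GFP+) and the bottom 10% as signalling-inactive (GFP low, labelled GFP-). There were 3 RNA-seq libraries in each of the 4 groups, 12 in all, and the cells of every group were grown in DMEM with 10% FBS with no added agent named. The reporter construct is not given in the sources used here, nor whether a line was 1 clone or a pool. Since no label tells whether replicate libraries were made from different cultures, the p-values reflect library-to-library spread alone, which may be technical.

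The genes described reached 4 on the log2 scale in 3 or more of the 12 columns, which held for 8655 of 18950 genes, and the difference was tested for each of them with limma and Benjamini-Hochberg adjustment over all 8655. Levels are CPM, reads per gene as the authors scaled them. They include an offset of 0.5 count, so that a gene with no count sits at a value slightly above 0. The scale did not follow the library total alone. A single count was 0.0606 CPM in DU145 GFP low replicate 1, with 18463611 estimated counts, and 0.0603 in DU145 GFP high replicate 2, with 16320733. A positive difference means more in DU145 GFP high cells, relative to GFP low, than in PC3, and a negative one means the reverse.

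In the canonical Wnt pathway, Wnt ligands bind Frizzled and LRP receptors, β-catenin escapes degradation, enters the nucleus and binds TCF/LEF factors, and these switch on target genes, several of which encode inhibitors of the pathway. A GFP reporter of this pathway usually sits behind TCF/LEF sites and marks cells in which that last step is active. Which other genes follow β-catenin differs widely between cell types, because chromatin and the other transcription factors present differ.

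The estimated counts summed to between 13453614 and 21528810 per library, and a level of 3 counts lay between 0.130 and 0.233 CPM. Levels of line-defining genes did not all follow what is known of these lines. CTNNA1, which is described as deleted in PC3, was at 387 ± 17.01 CPM (SD, n = 3) in the libraries labelled PC3 GFP high. CDH1 and EPCAM, epithelial adhesion genes, were under 1 CPM in all 12 libraries, KRT8 was at 1753 CPM in DU145 GFP high and 18.1 in PC3 GFP high, and the prostate genes KLK2, KLK3 and TMPRSS2 were at 0.106 CPM or less in every library. The line names below are those of the labels. UCHL1, at a mean of 74.9 CPM in DU145, had 0 counts in all 6 PC3 libraries, and MAGEA3, at 104 CPM in PC3, had 2 counts in the 6 DU145 libraries together.

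Some libraries stood apart. In DU145 GFP high replicates 1 and 2 the deviation of each gene from the other 5 libraries of the line fell with the GC content of the transcript (Spearman rho across 8651 genes of -0.72 and -0.74), while in replicate 3 of the same group it rose (0.28). In DU145 GFP low replicates 1, 2 and 3 rho was 0.65, 0.24 and 0.76. The other 5 libraries include both sorts, so rho does not tell which sort holds the trend. In PC3 GFP low replicate 2 rho was 0.68 and in replicate 3 it was -0.51, and these 2 libraries had 3495 and 3491 genes at 0 counts against 4577 to 4819 in the other 4 PC3 libraries. Counts over all genes and most list counts are also given without DU145 GFP high replicates 1 and 2. Some of those led by PC3 are given without PC3 GFP low replicates 2 and 3.

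The reporter effect differed between the lines for 1667 of the 8655 genes, 19.3% of those tested. Of these, 640 (7.39% of those tested) had a positive difference and 1027 (11.9%) a negative one. In DU145 by itself 3133 genes passed the test between GFP high and low cells (36.2%), and in PC3 867 did (10.0%). These 2 numbers moved with the libraries used. Without DU145 GFP low replicate 3 alone they were 871 in DU145 and 764 in PC3. Without DU145 GFP low replicate 1 alone they were 1263 and 705, and without DU145 GFP high replicate 3 alone 4928 and 1164. Leaving libraries out also makes the groups smaller, and the cause of these shifts was not tested. Without DU145 GFP high replicates 1 and 2 the numbers were 126 in DU145 and 1002 in PC3, without PC3 GFP low replicates 2 and 3 they were 3516 and 252, and with the trends in GC content and length removed from each library they were 2320 and 2147. Across the 8655 genes, the effects in the 2 lines hardly moved together (Pearson's r 0.02, Spearman's rho 0.05, across genes, which are not independent replicates). Without DU145 GFP high replicates 1 and 2, which leaves 1 library in that group and assumes that it varies like the others, 549 genes passed. Without PC3 GFP low replicates 2 and 3, 1043 did. Leaving out each library in turn gave between 948 and 3207. The fit to all 18950 genes called 1693 of them (8.93%). As RNA from bulk sorted cells, the values cannot tell fewer cells of a kind from less RNA per cell.

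**Figure D1:**
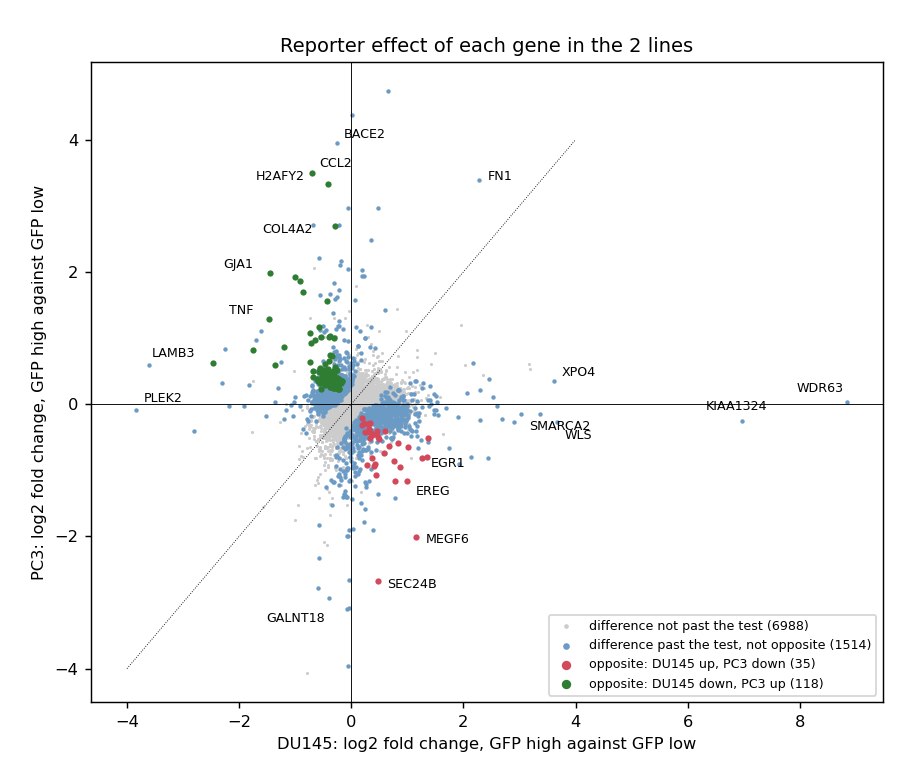
Log2 fold change between GFP high and GFP low cells in DU145 (x axis) and in PC3 (y axis), 1 point per gene for the 8655 genes tested. Grey points did not pass the test of the difference, blue points did, and red (35) and green (118) points passed in both lines with opposite signs. The dotted line marks equal effects, and most coloured points lie near the axes or in the 2 opposite quadrants.

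The classes of difference follow from these tests within each line and also moved with the libraries left out. For 1030 of the 1667 genes only DU145 passed its own test, with 386 risen and 644 fallen there, and for 317 only PC3 did, with 158 risen and 159 fallen. Without DU145 GFP high replicates 1 and 2 these 2 classes held 71 and 349 genes, without PC3 GFP low replicates 2 and 3 they held 762 and 125, and with the trends removed 913 and 915. In the fit to all 12 libraries another 150 passed in neither line, 17 changed in the same direction in both by different amounts, and 153 changed in opposite directions. Of the 1030, 908 had the opposite sign in PC3 without passing there, which the choice of genes by their difference itself favours. A difference of at least 1 in log2 was reached by 294 of the 1667, 198 positive and 96 negative. At the edge of the test, CLINT1 (difference 0.52) had an adjusted p of 0.0499 and M6PR (-0.31) one of 0.0501 (limma).

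Among the genes with the most positive differences, the leading group rose in DU145 from almost nothing. WDR63, which encodes an intermediate chain of axonemal dynein, was at 32.1, 36.4 and 34.2 CPM in DU145 GFP high, at 0, 0 and 6 counts in GFP low, and between 4 and 12 counts in each of the PC3 libraries. Every DU145 GFP high library was far above every other library. The fitted difference was 8.81 ± 1.24 (log2, SE, adjusted p = 0.000515, limma), but with counts this low it depends on the offset and was 5.95 with an offset of 8 counts. KIAA1324, an oestrogen-responsive membrane protein gene, was at 55.7, 64.3 and 63.1 CPM in DU145 GFP high, at 0.394 to 0.678 CPM in GFP low, and did not exceed 1.03 CPM in PC3. Its difference was 7.23 ± 0.59 (adjusted p = 7.63e-06, limma).

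WLS, the membrane carrier that brings Wnt ligands to the cell surface, was the third of this group and the one Wnt gene in it. Its level was 19.7, 20.9 and 20.5 CPM in DU145 GFP high, 1.61, 1.19 and 2.14 in DU145 GFP low, 40.7, 39.3 and 43.6 in PC3 GFP high, and 51.2, 50.6 and 47.9 in PC3 GFP low. It rose in DU145 by 3.67 ± 0.17 in log2, to a level still under that of PC3, where the change of -0.28 did not pass the test (adjusted p = 0.371, limma). The difference was 3.95 ± 0.24 (adjusted p = 4.08e-07, limma).

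XPO4, a nuclear transport receptor, USP3, a histone deubiquitinase, and ATP2B1, a plasma membrane calcium pump, rose in DU145 with no call in PC3. XPO4 was at 325, 318 and 236 CPM in DU145 GFP high against 22.3, 25.2 and 23.5 in GFP low, and at 37.1 to 57.8 CPM over the 6 PC3 libraries. USP3 was at 187 to 237 CPM in DU145 GFP high, 34.1 to 39.7 in GFP low, and 22.6 to 26.1 in PC3. ATP2B1 was at 33.5 to 48.4 CPM in DU145 GFP high against 5.30 to 8.21 in GFP low, while the PC3 groups overlapped between 20.9 and 31.2. DU145 groups were apart in each of these genes, which the choice of named genes required. For XPO4 and ATP2B1 replicate 3 was the lowest of the GFP high libraries. The differences were 3.27 ± 0.19, 2.42 ± 0.14 and 2.62 ± 0.29 (adjusted p = 3.23e-07, 3.23e-07 and 8.06e-05, limma).

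LYPD1, an inhibitor of nicotinic acetylcholine receptors, and TENM3, a teneurin adhesion protein, were rare in DU145 and plentiful in PC3. TENM3 had 8, 9 and 12 counts in DU145 GFP high against 1, 0 and 6 in GFP low, against 2967 to 3725 counts in the PC3 libraries. Its difference of 2.91 ± 0.89 (adjusted p = 0.0378, limma) was 1.15 with an offset of 8 counts and did not pass when any 1 of 8 libraries was left out (adjusted p up to 0.0873). LYPD1 was at 4.77 to 6.71 CPM in DU145 GFP high, 0.511 to 2.72 in GFP low, 62.5 to 67.0 in PC3 GFP high and 97.2 to 129 in PC3 GFP low (difference 3.25 ± 0.62, adjusted p = 0.00365, limma). No library gave LYPD1 a whole estimated count, which holds for C21orf2 too, so that reads assigned in parts are in these values.

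Other positive differences came from a fall in PC3. SEC24B, a cargo subunit of COPII vesicles, was at 257, 205 and 273 CPM in PC3 GFP low and at 35.9, 39.2 and 39.5 in PC3 GFP high, while in DU145 it was at 42.1, 44.8 and 32.9 in GFP high and 27.4, 31.99 and 26.1 in GFP low. PC3 GFP high cells were at the level of DU145, and the PC3 GFP low libraries alone stood out. The change was -2.67 ± 0.13 in PC3 and 0.48 ± 0.13 in DU145, both past the test, and the difference was 3.15 ± 0.19 (adjusted p = 3.52e-07, limma). C21orf2, a cilia and DNA repair gene, was at 68.2 to 75.7 CPM in PC3 GFP low and 8.12 to 8.42 in GFP high, with overlapping DU145 groups between 12.2 and 18.1. GALNT18, a GalNAc transferase, fell in PC3 from 3.04 to 5.39 CPM to 0.349 to 0.622, and the DU145 groups overlapped between 33.5 and 42.9. Their differences were 3.03 ± 0.20 and 3.04 ± 0.36 (adjusted p = 1.01e-06 and 0.000145, limma).

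Among the most negative differences, several genes were nearly silent in PC3 GFP low and were detected in PC3 GFP high, with high levels in both DU145 groups. BACE2, a β-secretase homologue, had 18, 16 and 13 counts in PC3 GFP high and 0, 2 and 0 in GFP low. It was at 34.9 to 39.1 CPM in DU145 GFP high against 43.9 to 44.3 in GFP low, a change that did not pass the test. Its difference was -4.20 ± 0.68 (adjusted p = 0.00135, limma) and -1.42 with an offset of 8 counts. H2AFY2, which encodes the histone variant macroH2A2, was at 8.59, 8.51 and 8.74 CPM in PC3 GFP high and 0.903, 0.920 and 0.747 in GFP low. In DU145 it was at 41.4, 44.4 and 45.5 CPM in GFP high and 53.8, 56.0 and 65.0 in GFP low, a small fall. Its difference of -3.74 ± 0.20 (adjusted p = 1.48e-07, limma) changed little with the offset (-3.20).

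KCTD15, an inhibitor of AP-2 factors, ANXA6, a membrane-binding annexin, and EBI3, a subunit of the cytokines IL-27 and IL-35, followed the same pattern. KCTD15 was at 11.6 to 12.5 CPM in PC3 GFP high and 0.903 to 2.98 in GFP low. ANXA6 was at 1.87 to 2.98 CPM in PC3 GFP high and 0.388 to 0.809 in GFP low, against 160 to 274 in DU145. EBI3 was at 3.80 to 4.01 CPM in PC3 GFP high and 0.379 to 1.09 in GFP low, and at 33.7 to 60.9 in DU145. The PC3 groups did not overlap in any of them, which was a condition for naming them. The differences were -3.03 ± 0.43, -2.78 ± 0.34 and -3.39 ± 0.41 (adjusted p = 0.000543, 0.000204 and 0.000177, limma).

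PLEK2, a pleckstrin family protein of the membrane skeleton, and ADAMTS1, a secreted metalloprotease, fell in DU145, where they were rare. PLEK2 had 2, 0 and 3 counts in DU145 GFP high against 22, 26 and 27 in GFP low, and was at 87.6 to 107 CPM in the PC3 libraries, whose groups overlapped. Its difference of -3.75 ± 0.80 (adjusted p = 0.00688, limma) was -1.58 with an offset of 8 counts and -2.49 without DU145 GFP high replicates 1 and 2. ADAMTS1 had 10, 11 and 3 counts in DU145 GFP high against 48, 32 and 37 in GFP low, and was at 167 to 189 CPM in PC3 GFP high and 91.7 to 105 in GFP low. The PC3 rise of 0.83 did not pass (adjusted p = 0.099), and the difference was -3.09 ± 0.42 (adjusted p = 0.000408, limma).

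Opposite effects were defined as past the test in each line with the signs reversed, and past the test of the difference. In all, 286 genes passed in both lines, 133 with the same sign and 153 with opposite signs. The condition on the difference removed none of the 153. These 153 genes were 1.77% of those tested. In 118 of them expression was lower in DU145 GFP high and higher in PC3 GFP high, with median changes of -0.37 and 0.37 in log2. In the other 35 it was higher in DU145 GFP high and lower in PC3 GFP high, with medians of 0.45 and -0.52. The smaller of the 2 changes reached 0.5 in 19 and 12 genes, and 1 in 3 and 1. Without DU145 GFP high replicates 1 and 2, 24 genes were opposite (7 and 17 with DU145 up and down), and without PC3 GFP low replicates 2 and 3, 57 were (12 and 45). With the trends in GC content and length removed, 455 were, and 113 of the 153 were among them.

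EGR1, an immediate early transcription factor, and HIST1H2AC, a histone H2A gene, rose in DU145 and fell in PC3. EGR1 was at 65.4, 76.1 and 70.7 CPM in DU145 GFP high, 27.1, 26.6 and 35.5 in DU145 GFP low, 98.4, 106 and 113 in PC3 GFP high, and 178, 194 and 184 in PC3 GFP low. The groups did not overlap in either line, which was a condition for naming the leading opposite genes. It held for 118 of the 118 opposite genes lower in DU145 GFP high and for 34 of the 35 higher there. Passing the test in each line itself favours this, and the share over all genes tested is not given here. For EGR1 the changes were 1.26 ± 0.11 in DU145 and -0.81 ± 0.11 in PC3, and the difference was 2.07 ± 0.15 (adjusted p = 2.99e-06, limma). HIST1H2AC was at 39.6, 44.3 and 47.8 CPM in DU145 GFP high, 21.2, 15.9 and 15.2 in DU145 GFP low, 6.01, 6.20 and 5.96 in PC3 GFP high, and 12.4, 9.12 and 10.3 in PC3 GFP low (difference 2.14 ± 0.22, adjusted p = 5.26e-05, limma).

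EREG encodes the EGF receptor ligand epiregulin. It was at 44.4, 39.3 and 27.1 CPM in DU145 GFP high, 16.2, 22.5 and 16.4 in DU145 GFP low, 8.41, 5.61 and 9.78 in PC3 GFP high, and 19.3, 11.9 and 22.5 in PC3 GFP low. The third DU145 GFP high library was the nearest to the GFP low ones, and the groups were apart, as the choice of these genes required. The changes were 0.996 ± 0.27 and -1.16 ± 0.27. The difference was 2.16 ± 0.38 (adjusted p = 0.00231, limma).

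The kinase gene HIPK2, the scaffold gene SHANK2, the myosin gene MYO5B and MEGF6, which encodes a protein with EGF-like repeats, completed the leading genes of this direction. HIPK2 was at 49.1 to 67.7 CPM in DU145 GFP high, 28.2 to 33.3 in GFP low, 75.9 to 82.7 in PC3 GFP high and 110 to 137 in PC3 GFP low. SHANK2 and MYO5B were lower in PC3, at 2.77 to 3.58 and 2.12 to 4.14 CPM in GFP high against 7.11 to 7.44 and 5.29 to 6.26 in GFP low. The differences were 1.66 ± 0.18, 1.95 ± 0.20 and 1.62 ± 0.30 (adjusted p = 6.37e-05, 5.26e-05 and 0.00307, limma). MEGF6 had 15, 18 and 9 counts in DU145 GFP high against 3, 8 and 10 in GFP low, so its DU145 side rests on few reads, while in PC3 it was at 7.74 to 9.10 CPM in GFP high and 32.9 to 33.8 in GFP low.

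TNF and GJA1 led the genes that fell in DU145 and rose in PC3. TNF, the inflammatory cytokine, was at 44.0, 40.2 and 45.1 CPM in DU145 GFP high, 111, 118 and 127 in DU145 GFP low, 14.9, 18.2 and 14.9 in PC3 GFP high, and 6.20, 7.45 and 6.003 in PC3 GFP low. The 2 groups of each line did not overlap, as the choice of these genes required. The changes were -1.47 ± 0.12 and 1.29 ± 0.12, and the difference was -2.75 ± 0.17 (adjusted p = 4.08e-07, limma). GJA1, the gap junction protein connexin 43, was at 183, 185 and 175 CPM in PC3 GFP high and 49.2, 39.5 and 50.1 in GFP low, and had 7, 3 and 4 counts in DU145 GFP high against 18, 19 and 8 in GFP low. Its changes were 1.98 ± 0.33 in PC3 and -1.45 ± 0.33 in DU145.

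PTX3, a secreted pattern recognition protein, was at 116, 142 and 132 CPM in DU145 GFP high, 222, 221 and 201 in DU145 GFP low, 43.6, 39.7 and 31.8 in PC3 GFP high, and 17.97, 18.6 and 17.4 in PC3 GFP low. Its difference was -1.81 ± 0.16 (adjusted p = 1.15e-05, limma). TIMP2, an inhibitor of matrix metalloproteinases, was at 23.1 to 28.7 CPM in DU145 GFP high against 49.0 to 51.1 in GFP low, and at 2.42 to 3.68 in PC3 GFP high and 0.493 to 1.17 in GFP low, with whole estimated counts in 4 of 12 libraries. MARVELD1, TSPAN15, a tetraspanin, KRTAP2-3, a hair keratin-associated protein, and the antisense RNA DLGAP1-AS2 had differences of -1.37 ± 0.12, -1.65 ± 0.25, -2.57 ± 0.23 and -2.06 ± 0.19 (adjusted p = 1.15e-05, 0.000831, 1.18e-05 and 2.04e-05, limma). MARVELD1 was the most even in level, at 66.4 to 74.8 CPM in DU145 GFP high, 109 to 121 in DU145 GFP low, 133 to 141 in PC3 GFP high and 78.1 to 94.9 in PC3 GFP low. KRTAP2-3 had whole counts in 2 of 12 libraries, and for DLGAP1-AS2 the strand used in counting is not given.

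**Figure D2:**
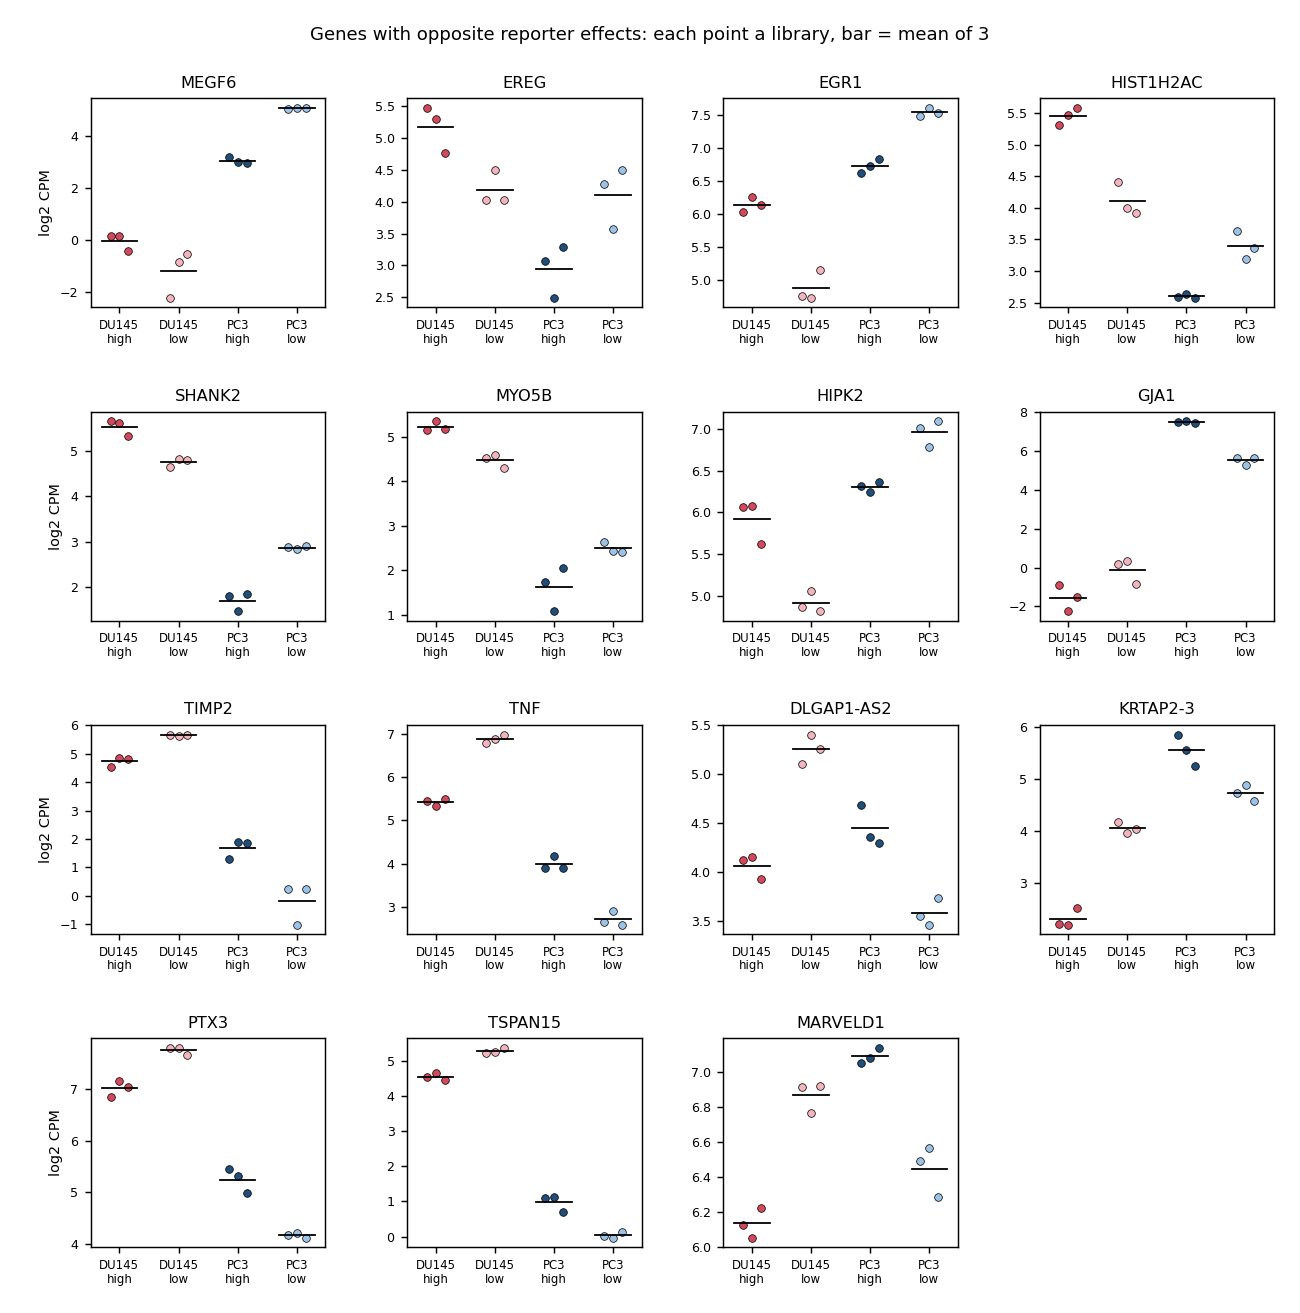
Levels in log2 CPM of 15 genes with opposite reporter effects, 1 panel per gene, for DU145 and PC3 GFP high and low cells. Each point is 1 library and each bar the mean of 3. In the first 7 panels DU145 GFP high lies above GFP low and PC3 GFP high below, and in the last 8 the order is reversed. The genes were chosen to have no overlap within a line.

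Gene lists showed which functions held these genes, read against the 7.39% positive and 11.9% negative over all genes tested. The median difference over all genes tested was -0.01. Beside counts within a line stand 36.2% of all genes called in DU145 and 10.0% in PC3, both directions together. With either pair of libraries left out, fewer of all genes tested passed as well. List counts from those fits are therefore not to be read against 7.39% and 11.9%. By mean level, the share called negative rose from 6.1% in the lowest of 5 equal bins of genes to 25.2% in the highest. The share called positive fell from 11.7% to 3.3%, and the lists were not matched for level or GC content. NF-kB factors are held in the cytoplasm by IkB proteins until a signal such as TNF releases them, and they then raise cytokine, chemokine and feedback genes. Of the 26 members kept from the NF-kB and inflammatory list, 19 had a negative difference and 0 a positive one, 6 of them opposite between lines. The median difference was -0.82, from a median of -0.20 in DU145 and 0.60 in PC3. In PC3 15 members rose and 0 fell, and in DU145 5 rose and 9 fell. With DU145 GFP high replicates 1 and 2 left out 13 were negative and 0 positive, and with PC3 GFP low replicates 2 and 3 left out 18 and 0.

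CCL2, a monocyte chemokine, was at 7.18, 7.02 and 7.18 CPM in DU145 GFP high, 10.6, 12.9 and 11.5 in DU145 GFP low, 18.9, 17.5 and 18.8 in PC3 GFP high, and 1.49, 1.53 and 1.88 in PC3 GFP low. GFP low cells were the higher in DU145 and the lower in PC3, with no overlap. Its changes were -0.70 ± 0.16 and 3.50 ± 0.16, and its difference of -4.21 ± 0.23 was the most negative of the list (adjusted p = 2.35e-07, limma). CXCL8, interleukin 8, was at 9.66 to 10.6 CPM in DU145 GFP high, 12.1 to 16.2 in GFP low, 131 to 152 in PC3 GFP high and 46.1 to 49.6 in PC3 GFP low. CXCL1, a neutrophil chemokine, rose in PC3 from 56.2 to 67.3 CPM to 174 to 191, while the DU145 groups overlapped between 248 and 319. Their differences were -1.98 ± 0.16 and -1.51 ± 0.13 (adjusted p = 7.78e-06 and 1.18e-05, limma).

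Other members of the list included the adhesion receptor ICAM1 (-0.31 in DU145 and 1.01 in PC3), the NF-kB subunit NFKB2 (-0.58 and 0.49) and the cytokine LIF (-0.25 and 0.51), all opposite. IL6 rose in PC3 by 2.48 with no call in DU145 (0.34). The feedback inhibitors TNFAIP3 and NFKBIA rose in PC3, by 0.995 and 0.43, with no call in DU145 (0.24 and -0.03). The complement gene C3 and the superoxide dismutase SOD2 rose in both lines and more in PC3, by 1.17 against 0.36 and by 0.66 against 0.17. The TNF family member LTB and the inhibitors of apoptosis BIRC2 and BIRC3 had positive differences that did not pass (1.47, 0.55 and 0.11).

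**Figure D3:**
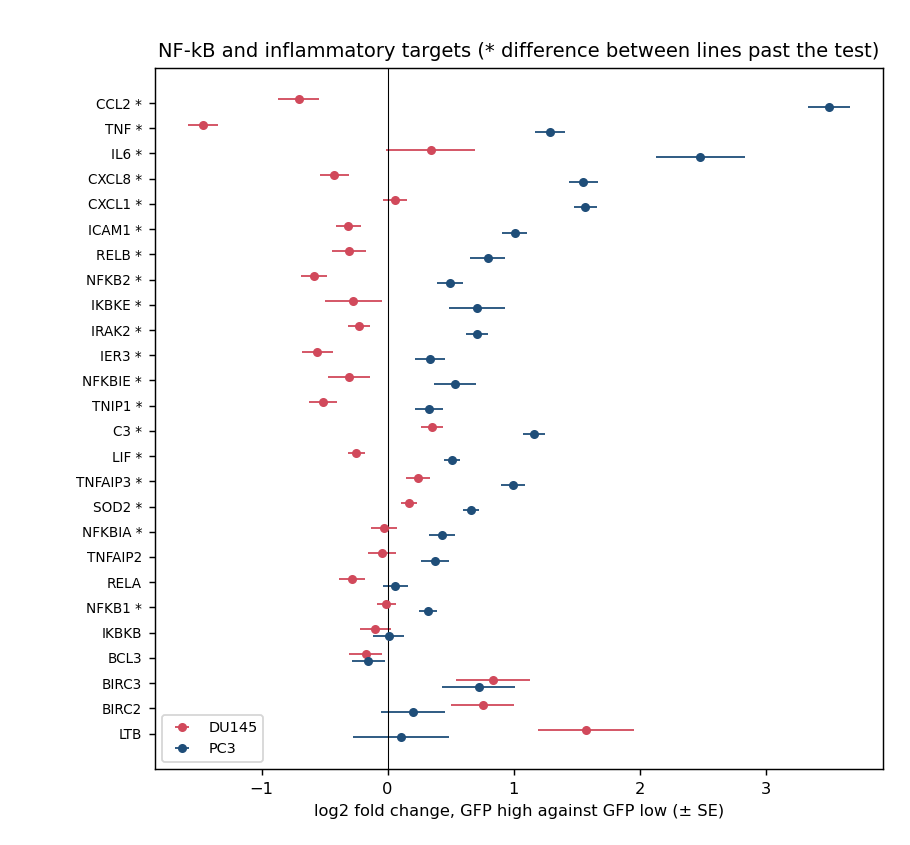
Log2 fold change between GFP high and GFP low cells (x axis, bars are standard errors) for the 26 NF-kB and inflammatory targets kept, in DU145 (red) and PC3 (blue), ordered by the difference between lines. An asterisk marks a difference past the test. The 19 genes with an asterisk, from CCL2 to NFKB1, have their PC3 point to the right of the DU145 point.

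To see what the moved genes share in sequence, promoters from RefSeq (GRCh38.p14, 250 bases before to 50 after the start) were matched to 7285 of the 8655 genes. Both strands were searched for the exact letters of 4 motifs: CTTTGA for TCF/LEF, TGANTCA for AP-1, ACGTG for the hypoxia element, and the 10-letter NF-kB consensus GGGRNWYYCC. In these, N is any letter, R is A or G, W is A or T, and Y is C or T. The NF-kB consensus was found in 8 of the 19 matched members of the NF-kB list (42.1%). These were listed as NF-kB and inflammatory targets, so that share does not bear on the difference between lines. The consensus was in 5 of the 13 members with a negative difference (38.5%), with none in the opposite members matched, TNF, CXCL8, ICAM1 and NFKB2. It was also in LTB, BIRC3 and BCL3, whose differences did not pass the test. It was found in 6.8% of all matched promoters, in 8.0% of those with a negative difference, in 13.3% of the opposite genes lower in DU145 GFP high (12 of 90) and in 6.4% of those with a positive difference. CTTTGA was found in 7.7% of all, 7.7% of the positive and 6.0% of the negative, TGANTCA in 3.7%, 3.8% and 4.3%, and ACGTG in 28.4%, 27.0% and 26.8%. A match is a description of letters and not a site, and a promoter with no exact match can still hold a site with other letters. The CXCL8 window below, for example, holds tggaatttcc, which departs from the NF-kB consensus in its opening letter only. Promoters of 3 of the genes above are shown as examples that hold the NF-kB consensus (CXCL1, chr4:73869143-73869442, + strand, where 2 matches overlap) or an AP-1 motif (CXCL8, chr4:73740319-73740618, and GJA1, chr6:121435396-121435695, both + strand). Capitals mark that motif, and the CXCL8 window also holds 1 CTTTGA match, on the other strand, 193 bases before the start, which is left in lower case.
CXCL1: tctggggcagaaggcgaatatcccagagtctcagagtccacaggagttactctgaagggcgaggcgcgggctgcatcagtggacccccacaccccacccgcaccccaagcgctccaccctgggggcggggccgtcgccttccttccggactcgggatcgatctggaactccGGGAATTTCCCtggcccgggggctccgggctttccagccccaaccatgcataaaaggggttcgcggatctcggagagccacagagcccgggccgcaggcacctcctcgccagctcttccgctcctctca
CXCL8: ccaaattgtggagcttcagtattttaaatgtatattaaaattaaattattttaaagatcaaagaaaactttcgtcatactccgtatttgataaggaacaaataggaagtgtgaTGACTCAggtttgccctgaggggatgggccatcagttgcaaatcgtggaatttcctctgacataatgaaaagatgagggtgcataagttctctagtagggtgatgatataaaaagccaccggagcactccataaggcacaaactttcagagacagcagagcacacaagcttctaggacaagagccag
GJA1: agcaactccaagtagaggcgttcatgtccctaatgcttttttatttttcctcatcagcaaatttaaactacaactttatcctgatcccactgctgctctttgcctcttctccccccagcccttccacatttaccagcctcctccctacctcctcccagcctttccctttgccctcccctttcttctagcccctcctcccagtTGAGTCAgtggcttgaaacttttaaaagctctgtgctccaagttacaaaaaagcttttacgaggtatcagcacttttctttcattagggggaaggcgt

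The basement membrane and matrix list held large differences of both signs, 10 negative and 7 positive of 25 members kept, with a median of -0.02. COL4A1 and COL4A2 encode the 2 chains of the main type IV collagen and lie head to head on chromosome 13. COL4A2 was at 303, 321 and 358 CPM in DU145 GFP high, 394, 381 and 426 in DU145 GFP low, 64.1, 67.2 and 64.9 in PC3 GFP high, and 9.58, 11.9 and 8.99 in PC3 GFP low. COL4A1 was at 114, 136 and 122 CPM in DU145 GFP high, 145, 141 and 147 in DU145 GFP low, 32.5, 32.4 and 32.1 in PC3 GFP high, and 4.57, 5.61 and 4.69 in PC3 GFP low. Both were higher in every PC3 GFP high library than in every PC3 GFP low one, which the choice of named genes required. They were also lower in every DU145 GFP high library than in every DU145 GFP low one. Their PC3 changes were 2.71 ± 0.10 and 2.70 ± 0.10 for COL4A1 and COL4A2, the DU145 changes were -0.22 (adjusted p = 0.0889) and -0.29 (adjusted p = 0.0386), and the differences were -2.93 ± 0.14 and -2.99 ± 0.14 (both adjusted p = 6.79e-08, limma).

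The RefSeq starts of COL4A1 and COL4A2 are 127 bases apart, and their promoter windows share 226 bases, which include 1 CTTTGA match. It is shown on the COL4A1 strand because the 2 genes moved together (chr13:110307108-110307407, - strand), with that match in capitals.
COL4A1: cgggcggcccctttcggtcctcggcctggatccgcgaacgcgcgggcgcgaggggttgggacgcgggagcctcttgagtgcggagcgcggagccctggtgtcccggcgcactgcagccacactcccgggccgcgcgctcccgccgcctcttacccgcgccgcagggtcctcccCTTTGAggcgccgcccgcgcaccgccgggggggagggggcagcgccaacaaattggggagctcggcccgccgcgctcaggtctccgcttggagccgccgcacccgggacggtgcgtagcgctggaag

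Laminin and fibrillar collagen genes followed in part. LAMB3, a laminin chain of epithelial basement membranes, fell in DU145 by 2.47 in log2 and rose in PC3 by 0.63, and COL5A2 fell by 0.58 and rose by 1.16. COL5A2 was at 90.6 to 108 CPM in DU145 GFP high, 141 to 151 in GFP low, 41.8 to 44.5 in PC3 GFP high and 17.1 to 21.5 in PC3 GFP low (difference -1.74 ± 0.14, adjusted p = 4.99e-06, limma). FN1, fibronectin, and LAMB1 rose in both lines and more in PC3, FN1 by 2.28 and 3.39 and LAMB1 by 0.47 and 2.97. HSPG2, perlecan, rose in both and more in DU145. It was at 231, 228 and 224 CPM in DU145 GFP high, 50.1, 49.8 and 52.4 in DU145 GFP low, 196, 192 and 171 in PC3 GFP high, and 110, 127 and 125 in PC3 GFP low, with whole counts in 4 of 12 libraries (difference 1.54 ± 0.11, adjusted p = 1.41e-06, limma). The collagenase MMP1 fell in PC3 by 1.91 with no call in DU145, and thrombospondin THBS1 rose in DU145 by 0.95 with no call in PC3. Leaving out DU145 GFP high replicates 1 and 2 gave 6 negative and 5 positive members, while 9 and 5 were found in the absence of PC3 GFP low replicates 2 and 3.

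Adhesion genes differed in both directions. In the list of epithelial adhesion genes and keratins 4 of 18 were positive and 3 negative (3 and 3 without DU145 GFP high replicates 1 and 2). CDH2, N-cadherin, was at 5.70, 7.38 and 4.46 CPM in DU145 GFP high, 0.697, 1.58 and 1.02 in DU145 GFP low, 78.0, 86.0 and 80.7 in PC3 GFP high, and 62.1, 61.7 and 64.0 in PC3 GFP low. DSG2, a desmosomal cadherin, was at 50.2 to 69.4 CPM in DU145 GFP high against 19.5 to 24.2 in GFP low, with overlapping PC3 groups. Their differences were 2.08 ± 0.35 and 1.57 ± 0.21 (adjusted p = 0.00178 and 0.000427, limma). LSR, a tricellular junction receptor, rose in PC3 by 1.19 with no call in DU145. Of 8 integrin genes, ITGA5 was opposite (-0.56 in DU145 and 0.55 in PC3), ITGB5 was negative and ITGA3 positive, and ITGB5 did not pass without DU145 GFP high replicates 1 and 2 (adjusted p = 0.118, limma).

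Wnt genes were not among the lists with the most differences. Of 31 Wnt pathway components, 4 had a positive and 5 a negative difference, and of 14 feedback and target genes 1 and 4. In both lists the share that differed was above the 19.3% over all genes tested. The median difference was -0.03 for the components and -0.31 for the feedback and target genes, against -0.01 over all genes. The counts were 2 and 2, and 1 and 1, without DU145 GFP high replicates 1 and 2. FZD8, a Wnt receptor, was at 5.20, 7.32 and 9.51 CPM in DU145 GFP high against 26.6, 23.0 and 32.2 in GFP low, with PC3 groups overlapping between 13.4 and 15.8, and its difference was -1.90 ± 0.28 (adjusted p = 0.000745, limma). FZD6 rose in DU145 by 1.41 with no call in PC3. The corepressor TLE2, counted among the positive differences, had 5 counts in PC3 GFP high and 30 in PC3 GFP low over 3 libraries each, so its value in PC3 depends on the offset. DKK3, a Dickkopf family member, fell in PC3 from 200 to 218 CPM to 127 to 144, and WNT5B fell in DU145 from 149 to 164 CPM to 99.4 to 119. MYC fell in DU145 from 338 to 355 CPM to 246 to 251, and in PC3 it was at 176 to 186 CPM in GFP high and 188 to 194 in GFP low, a change of -0.09 that did not pass. The MYC difference of -0.37 ± 0.08 (adjusted p = 0.00646, limma) did not pass after quantile scaling (-0.17, adjusted p = 0.192) or with the GC and length trends removed (-0.21, adjusted p = 0.106). MET, the HGF receptor, rose in DU145 by 0.73 and had a change of -0.30 in PC3 that did not pass.

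None of 12 Wnt genes given regardless of outcome passed the test of the difference, those under the minimum level being taken from the fit to all 18950 genes. LEF1, itself a direct target of the pathway, rose in both lines. It was at 1.88, 2.32 and 2.44 CPM in DU145 GFP high, 0.879, 0.355 and 0.691 in DU145 GFP low, 5.14, 4.16 and 3.92 in PC3 GFP high, and 1.66, 0.920 and 1.70 in PC3 GFP low. Its changes were 1.87 ± 0.40 and 1.67 ± 0.40 and its difference 0.20 ± 0.56 (adjusted p = 0.845, limma), an error that leaves differences of about 1 in log2 undetectable at these low levels. CTNNB1, β-catenin, was at 454 to 512 CPM in all DU145 libraries and 298 to 383 in PC3, with a difference of -0.14 ± 0.11. With the GC and length trends removed the CTNNB1 difference was -0.35 and passed (adjusted p = 0.0129, limma), and after quantile scaling it was 0.056 (adjusted p = 0.796). ZNRF3 passed without DU145 GFP high replicate 3 and without PC3 GFP low replicate 2 (adjusted p = 0.0382 and 0.0402, limma). ZNRF3, TCF7, TCF7L2, DKK1, NKD1, NOTUM, AXIN2, SP5, RNF43 and LGR5 had adjusted p-values between 0.0961 and 0.946 (limma), and RNF43 and LGR5 did not exceed 0.214 CPM.

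Histone and S100 genes lay on the positive side. Of 7 replication-dependent histone genes kept, 5 were positive and 0 negative, with a median difference of 2.09 (4 and 0 without DU145 GFP high replicates 1 and 2). HIST1H1C, linker histone H1.2, was at 244, 255 and 316 CPM in DU145 GFP high against 122, 119 and 128 in GFP low, with PC3 groups overlapping between 6.43 and 10.6. HIST1H2BK, HIST2H2BE and HIST2H4A rose in DU145 by 1.37, 1.90 and 1.74 with no call in PC3, and HIST2H4A, which has an identical copy, had no whole estimated count. These messages mostly lack poly(A) tails, and how RNA was selected is not given in the sources used here. Of 6 S100 calcium-binding protein genes, 4 were positive, and all 6 fell in PC3. Without PC3 GFP low replicates 2 and 3, 3 were positive. S100A6 was at 142, 170 and 132 CPM in PC3 GFP high and 379, 487 and 341 in GFP low, and the DU145 groups overlapped between 269 and 388. S100A2 and S100A13 fell in PC3 by 1.59 and 1.03. S100A10 fell in both lines, and its difference of 0.40 (adjusted p = 0.0476, limma) did not pass when any 1 of 10 libraries was left out (adjusted p up to 0.101).

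Cholesterol and fatty acid synthesis genes lay mostly on the negative side. Of 29 cholesterol and fatty acid synthesis genes, 16 were negative and 1 positive, with a median of -0.44. In DU145 17 fell and 1 rose, and in PC3 2 rose and 1 fell. FASN, fatty acid synthase, was at 2169, 2329 and 2589 CPM in DU145 GFP high against 3611, 3493 and 4343 in GFP low, with PC3 groups overlapping between 3214 and 4231. ACLY, which makes cytosolic acetyl-CoA, fell in DU145 by 0.56 and rose in PC3 by 0.31 (difference -0.87 ± 0.11, adjusted p = 0.000186, limma). DHCR7 and SCD fell in DU145 by 0.59 and 0.47. Of 26 genes of the unfolded protein and ATF4 response, 10 were negative and 2, the chaperones HSPA5 and HSP90B1, positive. Among the negative ones ASNS, asparagine synthetase, fell in DU145 from 148 to 168 CPM to 88.4 to 92.6 and stayed between 77.7 and 86.6 in PC3, and STC2, a secreted glycoprotein, rose in PC3 from 126 to 131 CPM to 243 to 302. Without DU145 GFP high replicates 1 and 2, the negative and positive members were 8 and 1 of the cholesterol list and 5 and 0 of the ATF4 list.

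Cell cycle genes that differed were mostly negative. Of 50 mitosis and G2/M genes, 13 were negative and 1 positive, and of 48 replication and S phase genes 12 and 2. Over all genes in the highest bin by mean level, 25.2% were negative and 3.3% positive. FOXM1, a transcription factor of G2/M genes, was at 315, 317 and 362 CPM in DU145 GFP high, 437, 423 and 446 in DU145 GFP low, 372, 379 and 357 in PC3 GFP high, and 293, 311 and 272 in PC3 GFP low. The groups were apart in both lines, in opposite order, with changes of -0.40 ± 0.07 and 0.34 ± 0.07, although FOXM1 had no whole estimated count. ESPL1, KIF2C, GTSE1 and NCAPD2, which act in chromosome separation, the spindle and chromosome condensation, were opposite in the same way, and so were the replication genes RRM2 and POLE. POLD4, a DNA polymerase delta subunit, went the other way, with a mean of 34.9 CPM in PC3 GFP high and 83.8 in GFP low and a difference of 1.51 ± 0.21 (adjusted p = 0.000545, limma), the largest in size of the replication list. The median of the mitosis list was -0.01, as over all genes. Without DU145 GFP high replicates 1 and 2, 6 of the mitosis and 5 of the replication genes were negative and 0 and 1 positive.

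Chromatin regulators tended to the positive side, with 11 positive and 2 negative of 45. KMT2C, a histone H3K4 methyltransferase, was at 165, 163 and 115 CPM in DU145 GFP high against 33.4, 34.96 and 35.8 in GFP low, with PC3 groups overlapping between 77.0 and 120 (difference 1.89 ± 0.22, adjusted p = 0.000136, limma). The demethylases KDM4A and KDM4B fell in PC3, KDM4A from 240 to 273 CPM to 110 to 122, with overlapping DU145 groups. SMARCA2, a SWI/SNF ATPase, had 4 to 6 counts in DU145 GFP high against 0 to 1 in GFP low, and its difference of 3.18 (adjusted p = 0.00412, limma) was 0.91 with an offset of 8 counts and did not pass after quantile scaling (1.86, adjusted p = 0.0867). With only the third DU145 GFP high library, 4 were positive and 1 negative. AP-1 and immediate early genes had 7 negative and 2 positive of 24 (4 and 1 without DU145 GFP high replicates 1 and 2), among them PHLDA2, an imprinted growth regulator, which fell in DU145 from 88.4 to 114 CPM to 32.5 to 45.6 and rose in PC3 from 19.3 to 23.8 to 31.4 to 35.05.

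Ribosomal protein and oxidative phosphorylation genes held hardly any difference. None of 76 cytosolic ribosomal protein genes passed the test of the difference, and 1 of 58 oxidative phosphorylation genes did. In DU145 15 of the 76 ribosomal genes fell and 1 rose, where 36.2% of all genes tested passed in either direction. With no adjustment the ribosomal count at p under 0.05 was 1. Of 10 interferon-stimulated genes 1 was negative. Hypoxia and glycolysis genes had 6 positive and 3 negative of 30 (3 and 0 without DU145 GFP high replicates 1 and 2), among them the adenylate kinase AK4 and the phosphofructokinase PFKL, which fell in PC3 by 1.24 and 1.09 with no call in DU145. Of 13 HLA class I presentation genes 3 were negative (HLA-B, TAP2 and TAPBP). HLA-B did not pass when any 1 of 8 libraries was left out (adjusted p up to 0.0912, limma), nor did HLA-B and TAPBP without DU145 GFP high replicates 1 and 2 (adjusted p = 0.218 and 0.161, limma).

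**Figure D4:**
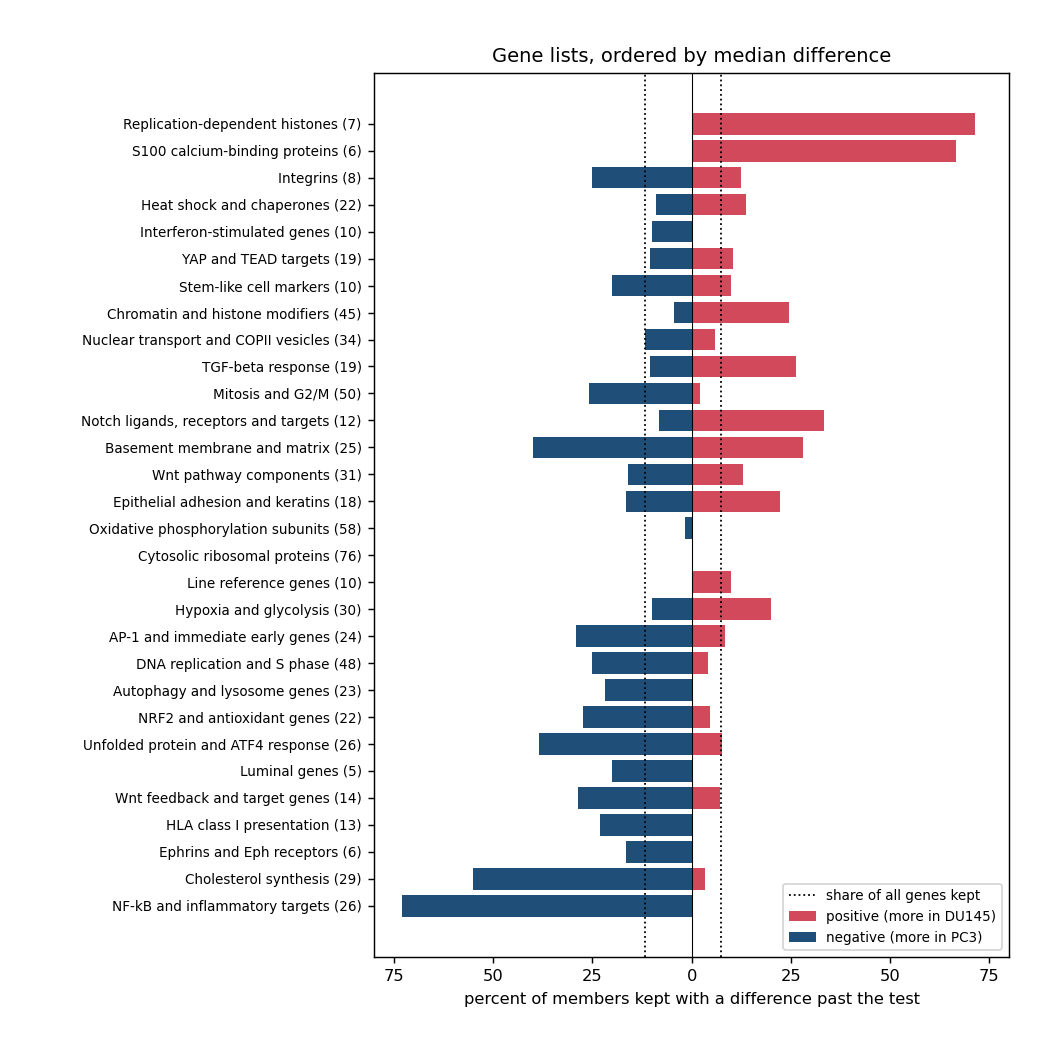
Share of each list's members kept (in brackets) whose difference between lines passed the test, positive to the right in red and negative to the left in blue, for the lists with at least 5 members, ordered by median difference. Dotted lines mark the shares over all genes tested, 7.39% and 11.9%. NF-kB and cholesterol genes extend farthest to the left, and histone and S100 genes farthest to the right.

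The difference between lines followed the GC content of the transcript, computed from GENCODE 29 for 8651 genes. Across genes, Spearman's rho with GC content was -0.71 for the DU145 effect, -0.12 for the PC3 effect and -0.52 for the difference. In the lowest of 5 equal bins by GC content (30.2 to 41.3%) the median difference was 0.46, and 13.2% were called positive and 1.0% negative. In the highest bin (58.5 to 73.5%) it was -0.19, with 3.8% positive and 16.3% negative. Across genes, Spearman's rho with transcript length was 0.22 and with the mean level -0.35 for the difference. The opposite genes lower in DU145 GFP high had a median GC content of 54.5%, and those higher 48.3%. With the GC and length trends of each library removed, 2572 genes passed, 1461 of the 1667 among them, and the NF-kB list had 18 negative and 1 positive, the cholesterol list 21 and 2, the histones 1 and 5, and the chromatin regulators 5 and 12. The part of GC content in the differences was not tested beyond this.

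**Figure D5:**
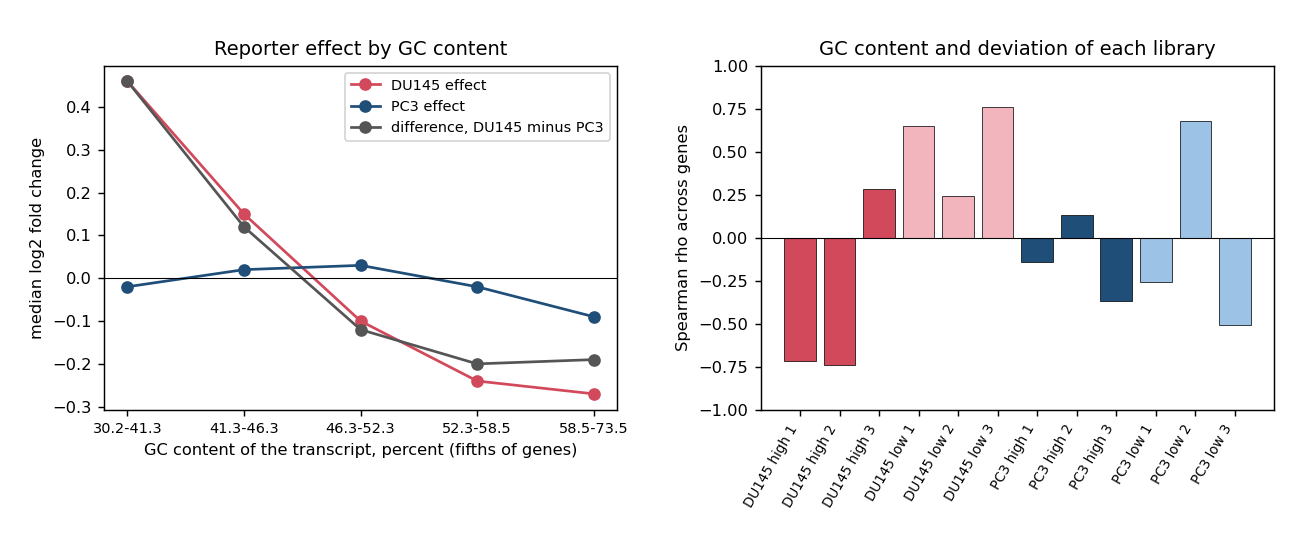
Left, median log2 fold change in DU145 (red), in PC3 (blue) and of their difference (grey) in 5 equal bins of genes by transcript GC content. Right, Spearman rho across 8651 genes between GC content and the deviation of each library from the other 5 of its line. The DU145 and difference lines fall together from 0.46, and the PC3 line stays between -0.09 and 0.03. DU145 GFP high replicates 1 and 2 have the most negative bars, and DU145 GFP low replicate 3 the most positive.

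By chromosome, the share of genes called lay between 13.4% (chromosome 19) and 36.3% (chromosome 22). On chromosome 22, 81 of 237 genes were negative and 5 positive, with a median effect of -0.36 in DU145 and 0.01 in PC3. With the GC and length trends removed 92 were negative and 13 positive there, and without DU145 GFP high replicates 1 and 2, 16 and 4. On chromosome 14 the balance was reversed, with 47 positive and 14 negative of 283 and a median effect of -0.18 in PC3 and -0.01 in DU145. The median PC3 effect on chromosome 14 was -0.21 without PC3 GFP low replicates 2 and 3 and -0.17 with the trends removed.

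Markers of leukocytes, fibroblasts and endothelium were mostly near 0, those of neuroendocrine cells were not, and several summed levels differed between groups. Of 10 leukocyte markers 8 stayed under 1 CPM in every library, of 9 fibroblast markers 6, of 7 endothelial markers 5 and of 10 neuroendocrine markers 3. The summed leukocyte level was 26.2 to 31.2 CPM in DU145 GFP high against 36.6 to 40.1 in GFP low, and 6.40 to 7.88 and 4.70 to 7.76 in PC3. The neuroendocrine sum was 69.8 to 78.5 CPM in DU145 GFP high and 83.4 to 87.7 in GFP low. In PC3 it was 58.1 to 61.6 and 59.9 to 63.8, and the PC3 groups overlapped for both of these sums. The fibroblast sum was 1.96 to 2.88 and 1.15 to 1.30 in DU145 and 4.16 to 5.20 and 2.18 to 3.89 in PC3, and the endothelial sum was 49.8 to 53.4 in PC3 GFP high and 30.1 to 37.4 in GFP low. PTPRC, the leukocyte common antigen, and PECAM1, an endothelial antigen, had 3 counts or fewer in every group, and COL3A1, a fibroblast collagen, had 169 counts in PC3 GFP high and 1 in PC3 GFP low. The part of these markers in the differences was not tested.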

How the data were processed

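RNA-seq of 12 libraries was used, 3 for each of DU145 and PC3 GFP high and GFP low cells. The authors deposited 1 table of log2 values, which, from the values themselves, are log2 CPM with an offset of 0.5 count. The library sizes behind this scale differ from the count totals. STAR and DESeq2 appear, with no version, among the tools in the submitters' processing notes. Build, annotation, counting and strand setting: not given in the sources used here. Estimated counts were recovered by reversing the scaling, and 86.4 to 88.0% of the values came out whole in a library.

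Genes with log2 of at least 4 in at least 3 of 12 columns (8655 of 18950) were fitted with limma 3.58.1 in R 4.3.3, with 4 group means and a variance trend. Every adjusted p is from limma with Benjamini-Hochberg adjustment over the genes tested, and the threshold was 0.05. The procedure was tested on simulated data. GC content and length came from GENCODE 29 and promoters from RefSeq. Tables and figures were made with Python 3.11.15, pandas 2.3.3 and matplotlib 3.10.9.

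The members and the gene lists were chosen with earlier results of these data known. The genes named were the 12 most positive and 12 most negative differences past the test, among genes whose highest group mean was at least 5 in log2 and whose libraries did not overlap in the line with the larger change. They also included the 8 opposite genes of each direction with the largest smaller change, under the same minimum and with no overlap in either line, up to 4 members of each list by smallest p, and 12 fixed Wnt genes. Clone names, genes with no symbol and Y-linked genes were passed over, and some results are not reported here. Other list members named beside them were chosen after their values were seen and were not followed one by one through the alternatives. The alternatives tried were other minimum levels, scalings, offsets, variance models, trend removal, a replicate block and leaving out libraries.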

Additional observations from a re-analysis of the deposited data

Results flagged for a closer look

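The test of the difference between the reporter effects in DU145 and PC3 itself picked out 4 groups of genes for a closer look. A positive difference was found for 640 genes and a negative one for 1027. Among them, 35 genes rose in DU145 and fell in PC3, and 118 fell in DU145 and rose in PC3. Groups of 3 libraries were too small to be tested for a single library far from the others.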

How the results depend on the processing

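Of 1667 genes that differed between lines and 153 with opposite effects, the numbers moved to 1086 genes that differed with a minimum of 6, to 2572 and 455 with the GC content and length trends removed, to 610 and 41 at an adjusted p under 0.01 (limma), and to 294 and 52 with a difference of at least 1 in log2. Array weights, which were added after seeing the data and fitted gene by gene because the default did not converge, gave 5451 and 1171, and quantile scaling with the trends removed, also added then, gave 2015 and 300. Without both DU145 GFP high replicates 1 and 2 there were 549 and 24, and without both PC3 GFP low replicates 2 and 3 there were 1043 and 57. Leaving out 1 library at a time gave 948 (without DU145 GFP low replicate 1) to 3207 (without DU145 GFP high replicate 3) and 74 to 237. The cause of these shifts was not tested beyond the fewer genes or libraries in some of them.

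The share of positive differences was 38.4%, against 23.6% with a minimum of 6, 48.4% with array weights, and 53.9% with quantile scaling and the trends removed. The median difference over all genes was 0.16 with no minimum and -0.12 with a minimum of 6.

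With the replicate number as a block, 2920 genes differed (49.1% positive) and 260 were opposite, and with the trends also removed 3056 and 558. Same-numbered libraries deviated together in PC3 (correlations 0.124, 0.432 and 0.353) but not throughout in DU145 (-0.21, 0.188 and 0.469), so the numbers were not taken to pair the samples. A block in PC3 alone gave 1879 and 151. Over the named genes and alternatives, 4395 values kept their direction and their side of the threshold, 94 newly passed and 172 no longer passed. Another 21, of 7 genes that passed in neither fit, changed sign. After quantile scaling these were RPL15 (0.013), NDRG1 (-0.066) and CTNNB1 (0.056), and with the trends also removed RPL15 (0.025) and RPL32 (0.043). With the trends removed, with or without the block, they were ENO2 (0.015) and ESAM (0.066), and 0.043 and 0.161 without both DU145 GFP high replicates 1 and 2. Without that pair alone ESAM was 0.128. Leaving out 1 library moved ESAM from -0.366 to 0.077 and TCF7L2 from -0.121 to 0.083.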
